A study of Mus musculus with 2 samples.

Results

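Irx1, Irx2, Pou3f4 and Hhex are 4 of the 31053 genes counted in single-cell libraries of mouse pancreatic islets, and they were chosen by name as transcription factors of the alpha and delta lineages. All 4 were found in the tables under 1 identifier each. Their levels are described across alpha, beta, delta and pancreatic polypeptide (PP) cells, defined below by their hormone transcripts, and between the virgin and the multipara library.

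Each endocrine cell type of the islet makes 1 main hormone: glucagon (Gcg) in alpha cells, insulin (Ins1 and Ins2) in beta cells, somatostatin (Sst) in delta cells and pancreatic polypeptide (Ppy) in PP cells. Irx1 and Irx2 are homeodomain proteins of the Iroquois family and are used as markers of alpha cells in the mouse islet. Pou3f4, also called Brn4, is a POU-homeodomain protein of developing and adult alpha cells that binds regulatory DNA of the glucagon gene. Hhex is a homeodomain protein that delta cells need in order to form and to keep their identity, and it is also expressed in endothelial and blood cells.

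The islets came from wild-type female C57BL/6J mice. The multipara mice entered breeding at 9 weeks of age, went through 3 pregnancies in a row, and gave their islets 3 weeks after the last delivery, while age-matched virgin mice were the controls. There was 1 library per group, and the labels do not say how many mice were pooled for it. The study describes its single-cell groups as replicated, and its text does not say whether these libraries pool mice or are part of that set. Islets were kept in serum-containing medium for a short time and dissociated with trypsin before 3′ single-cell capture, which counts each captured RNA molecule once by its unique molecular identifier (UMI). With 1 library per group no test between virgin and multipara was possible. All intervals below are 95% intervals for counting error only, and every difference between the groups is a difference between these 2 libraries.

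Irx1 (ENSMUSG00000060969) lies on chromosome 13 of GRCm38 from 71957921 to 71963723 on the minus strand, and Irx2 (ENSMUSG00000001504) on the same chromosome from 72628820 to 72634198 on the plus strand. The pair is 665.1 kb apart, with 6 annotated genes between them. Pou3f4 (ENSMUSG00000056854) is a gene of 1 exon on chromosome X from 110814280 to 110817207, and Hhex (ENSMUSG00000024986) is on chromosome 19 from 37434810 to 37440731, both on the plus strand. No annotated gene overlaps any of the 4, so no UMI had to be split with an overlapping gene.

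The promoter windows are shown of Irx2 and Pou3f4, which were highest in alpha cells, and of Hhex, which was highest in delta cells. Irx2 also starts 256 bases from a long non-coding RNA gene on the other strand, Gm20554. Each window runs 5′ to 3′ from 250 bases before to 50 bases after the RefSeq start (GRCm38.p6, plus strand), with the motif CCAAT in capitals, read as CCAAT on the plus and as ATTGG on the minus strand. No window was printed for Irx1.
Irx2, chr13:72628570-72628869: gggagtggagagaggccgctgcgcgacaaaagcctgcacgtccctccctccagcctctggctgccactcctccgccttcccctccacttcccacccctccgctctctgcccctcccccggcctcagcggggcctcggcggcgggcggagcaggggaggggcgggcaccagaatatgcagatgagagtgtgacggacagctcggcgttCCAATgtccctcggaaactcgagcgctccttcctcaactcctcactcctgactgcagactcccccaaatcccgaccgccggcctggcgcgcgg
Pou3f4, chrX:110814129-110814428: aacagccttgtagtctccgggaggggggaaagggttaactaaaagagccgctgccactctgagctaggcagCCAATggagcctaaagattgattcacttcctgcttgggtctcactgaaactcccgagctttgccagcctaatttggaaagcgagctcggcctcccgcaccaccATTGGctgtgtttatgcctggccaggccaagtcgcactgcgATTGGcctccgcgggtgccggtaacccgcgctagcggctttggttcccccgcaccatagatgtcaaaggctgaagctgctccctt
Hhex, chr19:37434591-37434890: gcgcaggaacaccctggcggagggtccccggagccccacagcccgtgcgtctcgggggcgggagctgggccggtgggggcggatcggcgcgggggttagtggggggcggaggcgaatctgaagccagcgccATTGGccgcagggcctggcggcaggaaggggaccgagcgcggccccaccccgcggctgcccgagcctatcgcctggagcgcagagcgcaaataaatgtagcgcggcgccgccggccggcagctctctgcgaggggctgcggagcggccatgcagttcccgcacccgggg
CCAAT occurred 1 time in the Irx2 window, 3 times in that of Pou3f4 and 1 time in that of Hhex. Of 32851 promoter windows of this length, 37.4% held at least 1 match on either strand and 3.37% at least 3. The core homeodomain motif TAAT, searched as TAAT and ATTA, was found 1 time in the Pou3f4 window and in neither of the other windows, against 58.0% of all windows with at least 1. The GC content was 69.0% for Irx2, 57.7% for Pou3f4 and 75.7% for Hhex, and the Hhex window was richer in GC than 96.7% of all windows.

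The Irx2 window covers nearly all of the gap to Gm20554, and the non-coding RNA followed the same order of cell types as Irx2. Gm20554 had 16.1 CPM in virgin and 15.6 CPM in multipara alpha cells, 5.50 CPM in the PP cells of both libraries, and 0.613 and 0.474 CPM in beta cells. Delta cells lay between PP and beta cells, on 4 virgin UMIs and 1 multipara UMI. CPM is the number of UMIs of a gene per 1000000 UMIs of the same cell class, and no length correction was applied because only 3′ ends were counted. The deposited tables do not state a strand setting, so UMIs were taken as assigned to the named gene.

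Total depth was 94853806 UMIs over 5463 virgin barcodes and 82503776 UMIs over 5075 multipara barcodes. After the cell filter of the study and removal of called doublets, 4330 virgin and 3330 multipara cells remained, with medians of 17178.5 and 18292.5 UMIs per cell. A cell was placed in a hormone class when its leading hormone made up at least 5% of its UMIs and at least 80% of its hormone UMIs, which gave 1032 and 647 alpha, 1717 and 1597 beta, 190 and 162 delta, and 87 and 90 PP cells in the virgin and multipara library. The factors took no part in the gate. Of the alpha markers Gc was as high in delta and PP cells as in alpha cells, and of the delta markers Lepr had 2 virgin UMIs and 0 multipara UMIs in delta cells, so Lepr and Gc did not mark their class here. Casr, another delta marker, had 32 and 16 UMIs in delta cells and marked them poorly. It stood at 39.55% and 92.7% of its delta level in PP cells and at 28.6% and 55.3% in alpha cells. The libraries shared 7 barcode sequences.

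Irx1 was concentrated in alpha cells. It had 1618 UMIs in virgin alpha cells (97.4 CPM, 92.7 to 102) and 980 in multipara alpha cells (87.8 CPM, 82.4 to 93.4). In delta cells the level was 2.84 CPM in the virgin library and 2.94 CPM in the multipara library, in PP cells it was 2.0 and 4.58 CPM, and in beta cells it was 0.531 and 0.410 CPM. Alpha cells were 184-fold above beta cells in the virgin library (log2 ratio 7.52, 6.96 to 8.14) and 214-fold above them in the multipara library (7.74, 7.09 to 8.48). The delta and PP levels, which rest on 4 to 10 UMIs per library, had intervals that overlapped each other in both libraries. The beta level lay below the delta level in both libraries, at a log2 ratio of -2.42 (-3.73 to -0.85) in virgin and -2.84 (-4.31 to -1.06) in multipara cells.

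Irx2 followed the same order at its top but stood higher outside alpha cells. Virgin alpha cells had 1727 UMIs (104 CPM, 99.1 to 109) and multipara alpha cells 1050 (94.0 CPM, 88.4 to 99.9). PP cells came next with 10.5 CPM (6.49 to 16) and 12.8 CPM (8.53 to 18.6), then delta cells with 6.63 and 7.04 CPM, and last beta cells with 1.94 CPM (1.57 to 2.37) and 1.01 CPM (0.745 to 1.35). The PP and delta levels did not differ beyond counting error in either library, with log2 ratios of 0.66 (-0.38 to 1.75) and 0.87 (-0.16 to 1.98) for PP over delta. Alpha cells were 53.6-fold above beta cells in the virgin library and 92.8-fold above them in the multipara library.

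Pou3f4 was a gene of few UMIs that also pointed to alpha cells. It had 92 UMIs in virgin alpha cells (5.54 CPM, 4.47 to 6.79) and 36 in multipara alpha cells (3.22 CPM, 2.26 to 4.46), against 2 UMIs in the beta cells of each library (0.0408 and 0.0431 CPM). Alpha over beta was 136-fold in the virgin library (log2 ratio 7.08, 5.19 to 10.2) and 74.8-fold in the multipara library (6.22, 4.27 to 9.32). Delta cells had 1 and 3 UMIs and PP cells 3 in each library, so the order among delta and PP cells could not be read. In multipara cells the alpha level was not separated from the delta level, at a log2 ratio of 0.87 (-0.79 to 3.22). Nor was it separated from the PP level, which stood at 42.7% of the alpha level (8.4 to 135).

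Hhex was the delta factor of the 4. Virgin delta cells had 746 UMIs (353 CPM, 328 to 380) and multipara delta cells 652 (383 CPM, 354 to 413). PP cells had 16 CPM (10.9 to 22.6) and 8.25 CPM (4.89 to 13.0), beta cells 2.90 CPM (2.44 to 3.42) and 1.64 CPM (1.29 to 2.05), and alpha cells 2.41 CPM (1.72 to 3.28) and 0.448 CPM (0.145 to 1.05). Delta cells were 122-fold above beta cells in the virgin library (log2 ratio 6.93, 6.67 to 7.20) and 234-fold above them in the multipara library (7.87, 7.52 to 8.23). The interval of alpha over beta cells held 0 in the virgin library (log2 ratio -0.27, -0.81 to 0.25), and alpha cells were below beta cells in the multipara library (-1.87, -3.54 to -0.59).

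Of the 4 factors 3 were 16-fold or more higher in alpha than in beta cells of both libraries, where 1.57% of 12480 genes with at least 20 UMIs were. Hhex was the 1 factor of 3 with enough UMIs that was 16-fold or more higher in delta than in beta cells, where 1.67% of 12063 genes were. In PP over beta cells 0 of 3 reached that fold in both libraries, against 0.494% of 11934 genes. The median gene lay at a log2 ratio of 0.42 in virgin and 0.40 in multipara cells for alpha over beta and of 0.90 and 0.89 for delta over beta, and the ratios above include that shift.

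**Figure D1:**
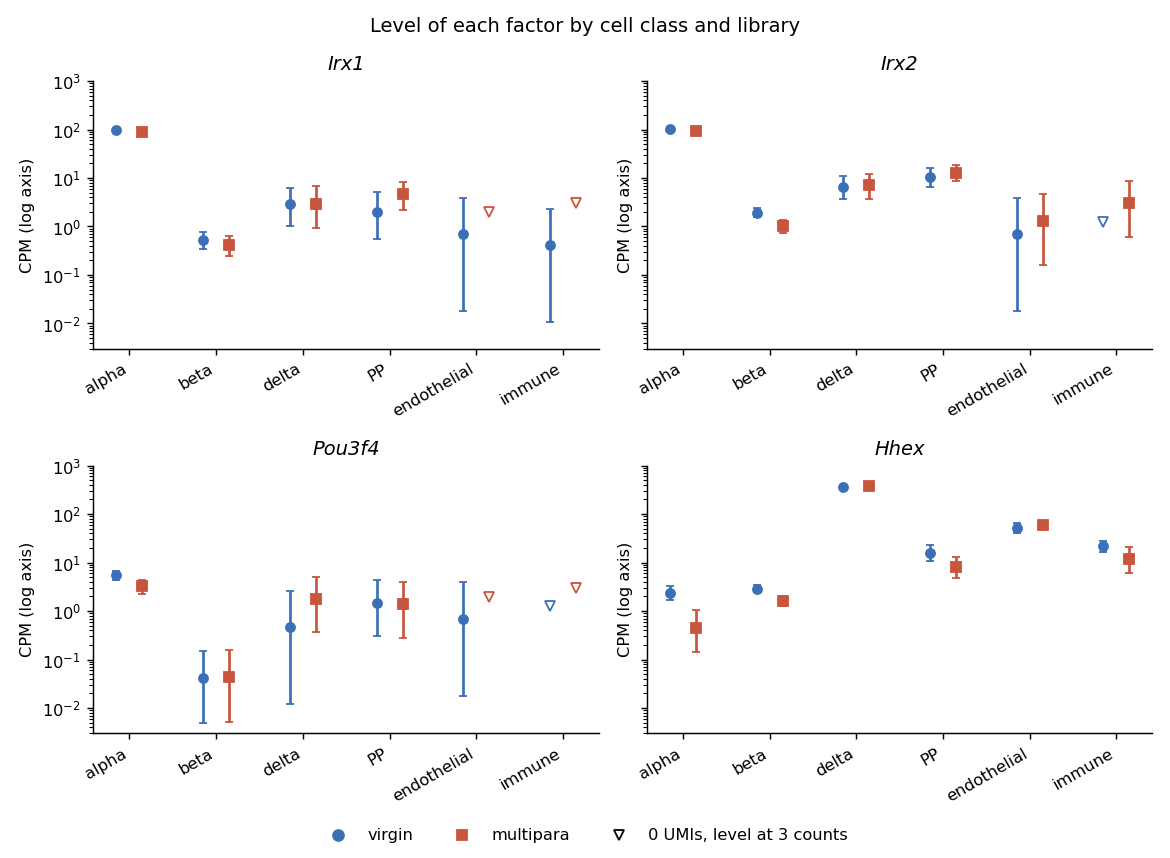
Level of Irx1, Irx2, Pou3f4 and Hhex in CPM (log axis) by cell class, with circles for the virgin and squares for the multipara library. Bars are exact Poisson 95% intervals, open triangles mark the level that 3 counts would give where no UMI was counted, and the endothelial and immune cells are those in which the leading hormone made up under 5% of UMIs. Irx1 and Irx2 reach 87.8 to 104 CPM in alpha cells and Hhex 353 to 383 CPM in delta cells, while Hhex also shows 51.9 to 59.6 CPM in endothelial cells.

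Outside the endocrine cells Hhex had the highest level of the 4 factors. Endothelial cells with little hormone RNA had 74 virgin UMIs (51.9 CPM, 40.7 to 65.1) and 91 multipara UMIs (59.6 CPM, 48.0 to 73.2), and immune cells had 21.6 CPM (16.2 to 28.4) and 12 CPM (6.19 to 20.9). Delta cells were 6.81-fold and 6.42-fold above endothelial cells. In mesenchymal cells Hhex was at 0 UMIs in both libraries, 0 of 89 virgin cells and 0 of 25 multipara cells, which allows shares of up to 3.37% and 12%. Irx1, Irx2 and Pou3f4 had at most 3 UMIs in the endothelial and in the immune cells of either library, and Irx1 had 4 virgin UMIs and 1 multipara UMI in mesenchymal cells. The mesenchymal cells were few and shallow. With every cell thinned to 2000 UMIs, Irx1 was found in 1.92% of virgin and 2.76% of multipara mesenchymal cells. The shares were 0.331% and 0.347% in delta cells and 0.385% and 1.08% in PP cells, with overlapping intervals. The endothelial, immune and mesenchymal reference cells, with a leading hormone under 5% of their UMIs, were chosen after the data had been seen.

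Most alpha cells carried an Irx1 or Irx2 UMI and most delta cells several Hhex UMIs. A UMI of Irx1 was found in 66.9% of virgin (63.9 to 69.7) and 66.6% of multipara alpha cells (62.8 to 70.2), and one of Irx2 in 71.9% (69.0 to 74.6) and 72.5% (68.9 to 75.9). Hhex was found in 181 of 190 virgin delta cells (95.3%, 91.2 to 97.8) and in 148 of 162 multipara delta cells (91.4%, 85.9 to 95.2), with a median of 3 and 4 UMIs per cell. Pou3f4 was found in 7.17% of virgin and 5.26% of multipara alpha cells and never with more than 3 UMIs in a cell. The median alpha cell with Pou3f4 had 1 UMI of it.

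**Figure D2:**
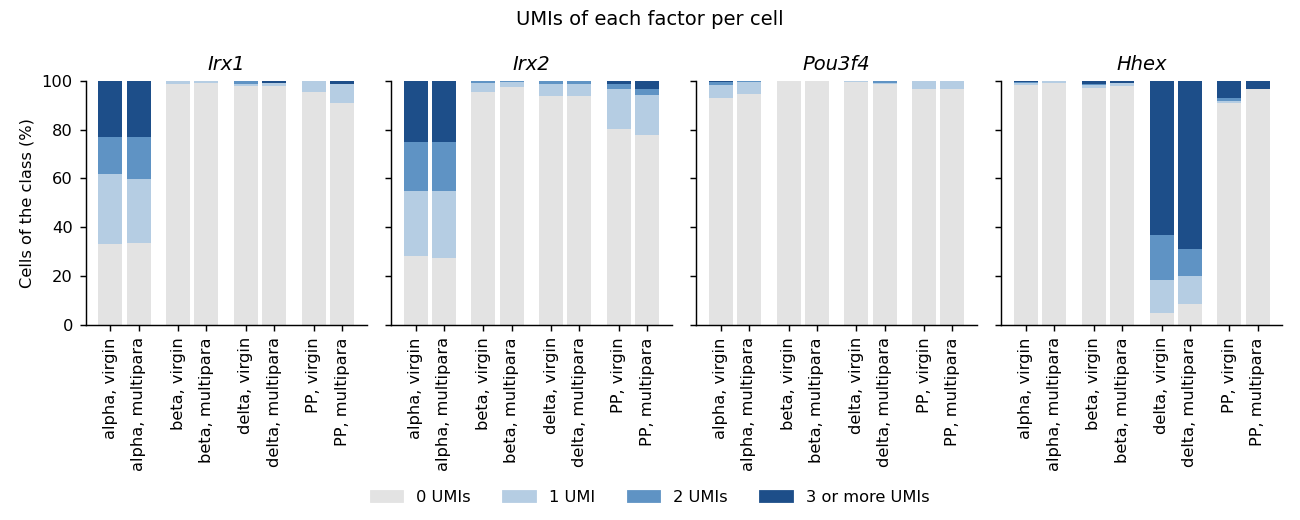
Share of cells (%) with 0, 1, 2 and 3 or more UMIs of each factor, by hormone class and library. Irx1 and Irx2 show 3 or more UMIs in 148 to 257 alpha cells per library and Hhex in 120 virgin and 112 multipara delta cells, while nearly all beta cells are at 0 for each factor.

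The shares rose with depth, and the levels had no such order. Among virgin alpha cells Irx2 was found in 22.9% of the 83 cells under 5000 UMIs and in 84.2% of the 202 cells with 20000 to 30000 UMIs. Its level over the 5 ranges of depth was 100.1, 128, 106, 102 and 77.5 CPM, a fall from 5000 UMIs upward. In multipara alpha cells it was 117, 88.7, 104, 82.0 and 69.0 CPM, lowest in the deepest cells. Irx1 had no steady fall in virgin alpha cells, at 133.5, 96.9, 100.1, 90.5 and 92.5 CPM. With every cell thinned to 5000 UMIs, Irx1 was found in 35.4% of 949 virgin alpha cells (32.4 to 38.6) and 32.9% of 612 multipara alpha cells (29.2 to 36.8), and Irx2 in 39.5% (36.3 to 42.6) and 36.8% (32.9 to 40.7). At that depth 83 virgin and 35 multipara alpha cells were too shallow and were left out. Hhex was found in 79.2% of virgin (72.6 to 84.7) and 82.2% of multipara delta cells (75.1 to 87.9) at 5000 UMIs.

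Irx1 and Irx2, a linked gene pair, were drawn together in alpha cells in shares that lay close whether or not the other was found. In 1 draw of 5000 UMIs per cell, Irx1 was found in 37.6% of virgin alpha cells with Irx2 and in 34.2% of those without it, and in the multipara library in 32.9% and 30.3%. Both were found in 14.4% and 11.9% of alpha cells and neither in 40.6% and 44.4%. At 10000 UMIs per cell the share with neither was 17.6% of 896 virgin and 21.8% of 582 multipara alpha cells. At these depths a cell with neither UMI may still carry both RNAs.

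The balance of the Iroquois pair differed outside alpha cells. Irx2 gave 51.6% of the UMIs of the pair in virgin alpha cells (49.9 to 53.3) and 51.7% in multipara alpha cells (49.5 to 53.9). In beta cells it gave 78.5% (70.1 to 85.5) and 71.2% (58.8 to 81.7), and in PP cells 84.0% (63.9 to 95.5) and 73.7% (56.9 to 86.6). These intervals lie above those of alpha cells in both libraries. In delta cells the share was 70.0% and 70.6%, from 20 and 17 UMIs, and its intervals reached down to those of alpha cells.

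PP cells held the Iroquois pair well below the alpha level. In PP cells Irx1 stood at 2.05% (0.558 to 5.26) and 5.22% (2.50 to 9.65) of its alpha level, and Irx2 at 10.1% (6.23 to 15.5) and 13.7% (9.03 to 19.8). Of 87 virgin PP cells 12 carried at least 10000 CPM of Gcg, and they held 5 of the 21 Irx2 UMIs. The same was true of 12 of 90 multipara PP cells and 10 of 28 UMIs. In the PP cells under that Gcg level Irx2 remained at 9.40 CPM (5.37 to 15.3) and 9.54 CPM (5.66 to 15.1).

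Beta cells held each factor at a low level, and the factors differed in the hormone RNA that came with their UMIs. Irx2 was found in 76 of 1717 virgin beta cells (4.43%, 3.50 to 5.51) and in 41 of 1597 multipara beta cells (2.57%, 1.85 to 3.47). Irx1 was found in 22 cells (1.28%, 0.805 to 1.93) and 15 cells (0.939%, 0.527 to 1.54), Hhex in 51 cells (2.97%, 2.22 to 3.89) and 33 cells (2.07%, 1.43 to 2.89), and Pou3f4 in 2 cells of each library (0.117% and 0.125%). Beta cells were deeper than the other classes, with medians of 30016 and 32012 UMIs. Immune cells with little hormone RNA, a class outside the endocrine lineage, had medians of 3804 and 6238 UMIs, and there Irx2 was found in 0 of 408 virgin cells, which allows up to 0.735%, and in 3 of 150 multipara cells (2%, 0.414 to 5.73). Over all immune cells, those with more hormone RNA included, the Irx2 shares were 1.30% (0.525 to 2.66) and 1.40% (0.289 to 4.02).

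At 5000 UMIs per cell the cells used for background were too few to tell whether the beta shares of Irx2 lay above theirs. Irx2 was then found in 1.07% of virgin beta cells (0.622 to 1.72) and 0.549% of multipara beta cells (0.230 to 1.10), beside 0 of 149 virgin immune cells, which allows up to 2.01%, and 1.5% of 96 multipara immune cells (0.0991 to 6.42). Irx1 was found in 0.258% of virgin and 0.205% of multipara beta cells and Hhex in 1.02% and 0.654%, beside 0 of 53 virgin mesenchymal cells for Hhex, which allows up to 5.66%. Even 0 cells found would allow 2.01% of the virgin and 3.125% of the multipara immune cells, which is above the beta shares of Irx2. The comparison at this depth therefore could not separate Irx2 from background in either library. Per UMI counted, Irx2 stood at 1.94 CPM in virgin beta cells, above the 1.25 CPM that 0 UMIs in virgin immune cells allow, and inside the interval of 0.0178 to 3.91 CPM in virgin endothelial cells. In multipara beta cells it stood at 1.01 CPM, inside the interval of 0.617 to 8.75 CPM of the multipara immune cells.

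Hhex in beta cells came with somatostatin RNA. Virgin beta cells with an Hhex UMI had a median of 31743 CPM of Sst (quartiles 2942 and 39877) and those without one a median of 71.4 CPM (31.5 and 123). In the multipara library the medians were 20516 CPM (67.0 and 38780) and 48.2 CPM (0 and 92.9). Only 45 virgin beta cells (2.62%) and 22 multipara beta cells (1.38%) had 10000 CPM of Sst or more, and they held 125 of 142 Hhex UMIs (88.0%) and 62 of 76 (81.6%). Across the remaining beta cells Hhex was at 0.358 CPM (0.209 to 0.574) and 0.307 CPM (0.168 to 0.515). Ppy was also higher in beta cells with Hhex, with 41.2% of virgin and 18.2% of multipara Hhex-positive beta cells at 10000 CPM of Ppy or more, against 1.92% and 0.767% of those without Hhex.

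The same held for Hhex in PP cells and partly in alpha cells. The 8 virgin and 3 multipara PP cells with Hhex all had 10000 CPM of Sst or more and held every Hhex UMI of their class, 32 and 18, while the other 79 and 87 PP cells had 0. Of 15 virgin alpha cells with Hhex 5 had that much Sst and held 20 of 40 UMIs, and none of the 5 multipara alpha cells with Hhex did. The virgin alpha cells with Hhex had a median of 5098 CPM of Sst, against 112 CPM in those without it. The part of Sst-rich cells that passed the doublet caller was not tested, and the caller had removed 61 virgin and 44 multipara cells before.

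Part of the Irx1 UMIs of beta cells lay in cells rich in glucagon RNA, and most of the Irx2 UMIs did not. The upper quartile of Gcg was 31125 CPM in the 22 virgin beta cells with Irx1 and 1216 CPM in those without it, and 13063 and 859 CPM in the multipara library. Beta cells with 10000 CPM of Gcg or more numbered 30 and 54, and they held 10 of 26 Irx1 UMIs (38.5%) and 8 of 19 (42.1%). They held 10 of 95 Irx2 UMIs (10.5%) and 3 of 47 (6.38%), while making up 1.75% of virgin and 3.38% of multipara beta cells. Irx2 stood at 23.8 and 8.54 CPM in them, against 1.75 and 0.956 CPM in the other beta cells. The median Gcg of beta cells with Irx2 was 906 CPM beside 920 CPM without it in the virgin library, and 525 beside 602 CPM in the multipara library. Of the beta cells with Irx2, 70 of 76 virgin and 38 of 41 multipara cells were below 10000 CPM of Gcg. Gcg of 10000 CPM or more was found in 7.9% and 7.32% of beta cells with Irx2, beside 1.46% and 3.28% of those without it. Beta cells with Irx2 differed from the others in Rbp4, a retinol-binding protein gene that is highest in delta cells and stood at 20.8% and 13.8% of the delta level in alpha cells. Their median Rbp4 was 106 CPM in the virgin library (quartiles 0 and 1134) and 21.3 CPM in the multipara library (0 and 168), against 0 CPM in beta cells without Irx2 in both libraries. Beta cells with Hhex had more of it, with medians of 1091 and 447 CPM. Sst of 10000 CPM or more was found in 7 of 76 virgin cells with Irx2 (9.21%) and 3 of 41 multipara cells (7.32%), beside 2.32% and 1.22% of those without it. Ppy of 10000 CPM or more was found in 7 of 76 virgin and 0 of 41 multipara cells with Irx2, beside 2.80% and 1.16% of those without it. Of the 2 Pou3f4-positive beta cells in each library, 1 had over 10000 CPM of Gcg.

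**Figure D3:**
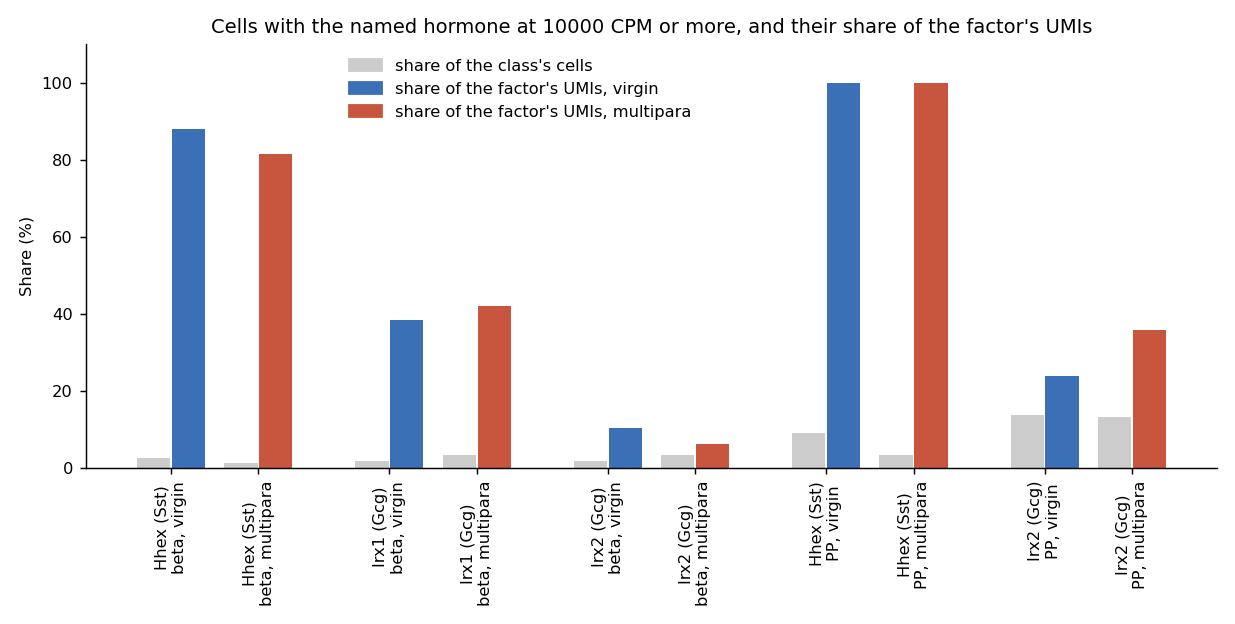
For each factor and class, the grey bars give the share of cells with at least 10000 CPM of the hormone in brackets and the coloured bars the share of the factor's UMIs held by those cells (%). Beta cells high in Sst are 2.62% and 1.38% of beta cells but hold 88.0% and 81.6% of Hhex UMIs. Beta cells high in Gcg are 1.75% and 3.38% of beta cells and hold 10.5% and 6.38% of Irx2 UMIs.

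The beta level of each factor was then set beside that of other genes of the same source cells. Hhex in virgin beta cells stood at 0.821% of its delta level (0.681 to 0.983), just above Sst with 0.637% and below Rbp4 with 1.66%, and in multipara beta cells at 0.428% (0.333 to 0.544), between 0.296% and 0.797% for the same genes. Irx1 stood at 0.545% (0.355 to 0.802) and 0.467% (0.280 to 0.733) of its alpha level, beside Gcg with 0.384% and 0.271%. The Gcg value lay inside the Irx1 interval in the virgin library and just below it in the multipara library. Irx2 stood at 1.87% (1.5 to 2.29) and 1.08% (0.787 to 1.44), above the intervals of Gcg in both libraries. Genes of the same source did not come down to 1 common percentage in beta cells, since Ttr stood at 2.15% and 1.46% and Slc7a2 at 18.3% and 24.7%. Of the delta genes, Casr stood at 32.9% and 35.35% of its delta level. Immune cells with little hormone RNA held Gcg at 0.450% and 0.302% of the alpha level, as much as beta cells or more, and Sst at 0.0702% and 0.0668% of the delta level, less than beta cells.

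Beta cells in which insulin made up at least 99% of hormone UMIs held most Irx2 UMIs of the class and few of its Hhex UMIs. In these 1533 virgin and 1374 multipara cells Hhex stood at 0.0617% (0.0295 to 0.114) and 0.0700% (0.0360 to 0.123) of its delta level, with 10 and 12 UMIs left. Sst, which the stricter gate itself removes, stood at 0.0436% and 0.0281%. The gate also takes out the Sst-rich cells that held 88.0% and 81.6% of the Hhex UMIs of beta cells, so a fall of Hhex was built into it. Irx1 stood at 0.336% and 0.255% of its alpha level and Irx2 at 1.41% (1.08 to 1.79) and 0.950% (0.675 to 1.30). The stricter gate thus kept 67 of 95 virgin and 40 of 47 multipara Irx2 UMIs of beta cells but 10 of 142 and 12 of 76 Hhex UMIs. The level of Irx2 per UMI was uneven over depth in virgin beta cells, with 3.59 CPM in the 489 cells of 20000 to 30000 UMIs and 1.14 CPM in the 862 cells of 30000 to 60000 UMIs, and 1.17 and 0.882 CPM in the same ranges of the multipara library.

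**Figure D4:**
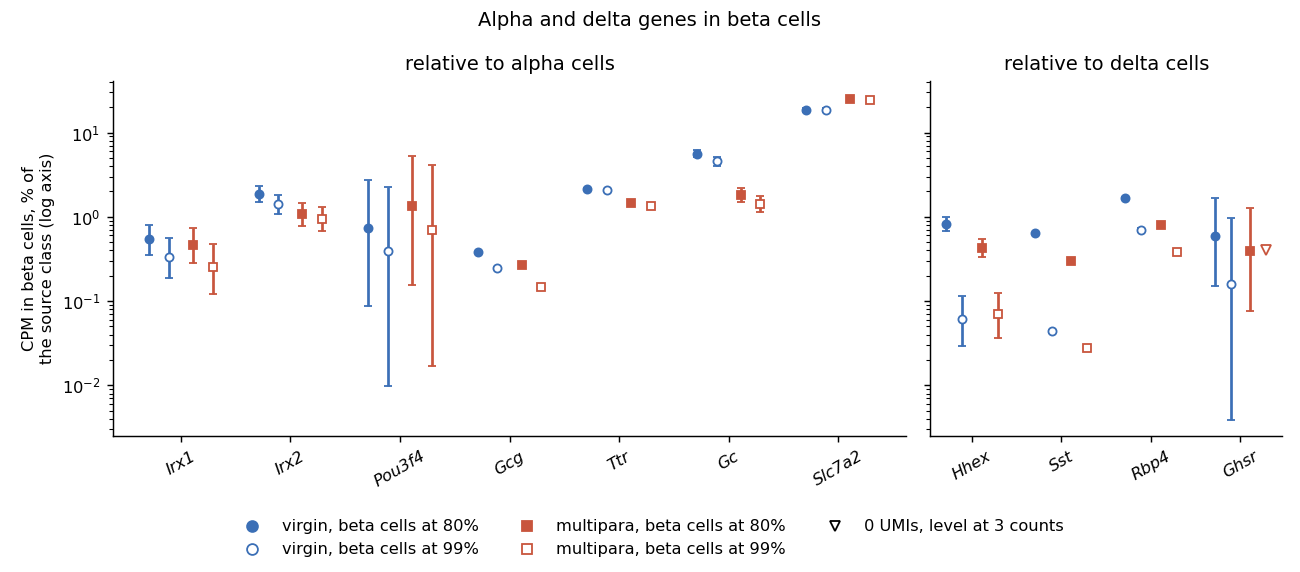
CPM in beta cells as a percentage (log axis) of the CPM in alpha cells (left) or delta cells (right) of the same library, for the factors and for other genes of those cells. Filled symbols are beta cells with insulin at 80% or more of hormone UMIs, open symbols those at 99% or more, bars are exact 95% counting intervals, and an open triangle marks the level at 3 counts where no UMI was counted. Hhex drops from 0.821% and 0.428% to 0.0617% and 0.0700%, while Irx2 goes from 1.87% and 1.08% to 1.41% and 0.950%.

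Among cells with more than 1 hormone, which entered no class, most of those led by Sst carried Hhex and most of those led by Gcg carried Irx2. Of 168 virgin and 157 multipara mixed cells led by Sst, 82.7% (76.2 to 88.1) and 87.3% (81.0 to 92.0) had an Hhex UMI, at 314 and 319 CPM. Mixed cells led by Gcg had Irx2 in 57.3% of 75 virgin and 70.2% of 57 multipara cells, at 60.4 and 56.9 CPM. Hhex was also present in the mixed cells led by Gcg, at 90.9 CPM in virgin cells, above Irx2, and at 46.6 CPM in multipara cells, below Irx2. There were 319 virgin and 272 multipara mixed cells in all. Those led by insulin (48 and 34 cells) or by Ppy (28 and 24 cells) are not described here.

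Between the virgin and the multipara library Irx1, Irx2 and Hhex were close to level in the cell type where each was highest, and Pou3f4 was lower in the multipara library. Irx1 in alpha cells was at 97.4 CPM (virgin) and 87.8 CPM (multipara), a log2 ratio of -0.15 (-0.27 to -0.04), and Irx2 at 104 and 94.0 CPM, a ratio of -0.15 (-0.26 to -0.03). The median of all genes tested in alpha cells was -0.09, inside the interval of each. Hhex in delta cells was at 353 and 383 CPM, a ratio of 0.12 (-0.04 to 0.27), beside a median gene at -0.09. Pou3f4 in alpha cells was at 5.54 and 3.22 CPM, a ratio of -0.78 (-1.38 to -0.21) on 92 and 36 UMIs. At 5000 UMIs per cell Pou3f4 was found in 2.66% of virgin (1.73 to 3.90) and 1.56% of multipara alpha cells (0.734 to 2.89), with overlapping intervals. Counting error alone does not cover the Pou3f4 difference in CPM, and the spread between mice is not known.

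With the main hormone gate, Hhex in alpha, beta and PP cells was lower in the multipara library, and so was Sst in the same cells. Hhex was not lower in endothelial cells with little hormone RNA, at 51.9 and 59.6 CPM, a log2 ratio of 0.20 (-0.26 to 0.66). In immune cells with little hormone RNA the Hhex ratio was -0.85 (-1.9 to 0.07), not beyond counting error. Hhex in alpha cells was at 2.41 and 0.448 CPM, a log2 ratio of -2.43 (-4.13 to -1.09), and Sst in the same cells was at 674 and 114 CPM. In alpha cells under 10000 CPM of Sst, Hhex was at 1.22 CPM (0.745 to 1.89) and 0.448 CPM (0.146 to 1.05). The alpha ratio depended on the hormone gate, at -0.29 (-2.91 to 1.94) on 6 virgin and 3 multipara UMIs with Gcg at 95% of hormone UMIs or more, and at -0.84 (-1.30 to -0.40) with Gcg at 60% or more. Hhex in beta cells was at 2.90 and 1.64 CPM, a ratio of -0.82 (-1.25 to -0.41), with Sst at 1274 and 654 CPM, and in beta cells at 99% insulin the Hhex ratio was 0.30 (-1.04 to 1.67). Hhex in PP cells was at 16 and 8.25 CPM, a ratio of -0.95 (-1.87 to -0.08), with Sst at 5968 and 2420 CPM. The part of Sst-rich cells in the alpha, beta and PP ratios was not tested beyond these gates.

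Irx2 in beta cells was at 1.94 and 1.01 CPM, a log2 ratio of -0.94 (-1.47 to -0.42), and at -0.71 (-1.31 to -0.12) in beta cells at 99% insulin. Gcg in beta cells was also lower in the multipara library, at 1435 and 1065 CPM. Irx1 in beta cells had a ratio of -0.37 (-1.31 to 0.54), and Irx1 and Irx2 in delta cells had ratios of 0.05 (-2.0 to 2.02) and 0.09 (-1.16 to 1.31). In PP cells Irx2 had a ratio of 0.29 (-0.58 to 1.18) and Irx1, with 4 and 10 UMIs, one of 1.20 (-0.60 to 3.33). The remaining Pou3f4 sums of 1 to 3 UMIs did not allow a comparison, with an interval of -3.71 to 3.87 in beta cells.

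Read against all genes, few of these ratios were large. Among genes with 20 or more UMIs in the 2 sums, 1 of 4 factors was past 2-fold in alpha cells (Hhex, which was under 2-fold at a hormone share of 60% and of 95%), where 2.6% of 12012 genes were, and 0 of 3 in beta cells, where 4.38% of 12994 genes were. In delta cells 0 of 2 factors were past 2-fold, beside 2.82% of 9710 genes, and in PP cells 0 of 2, beside 3.98% of 8194 genes.

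**Figure D5:**
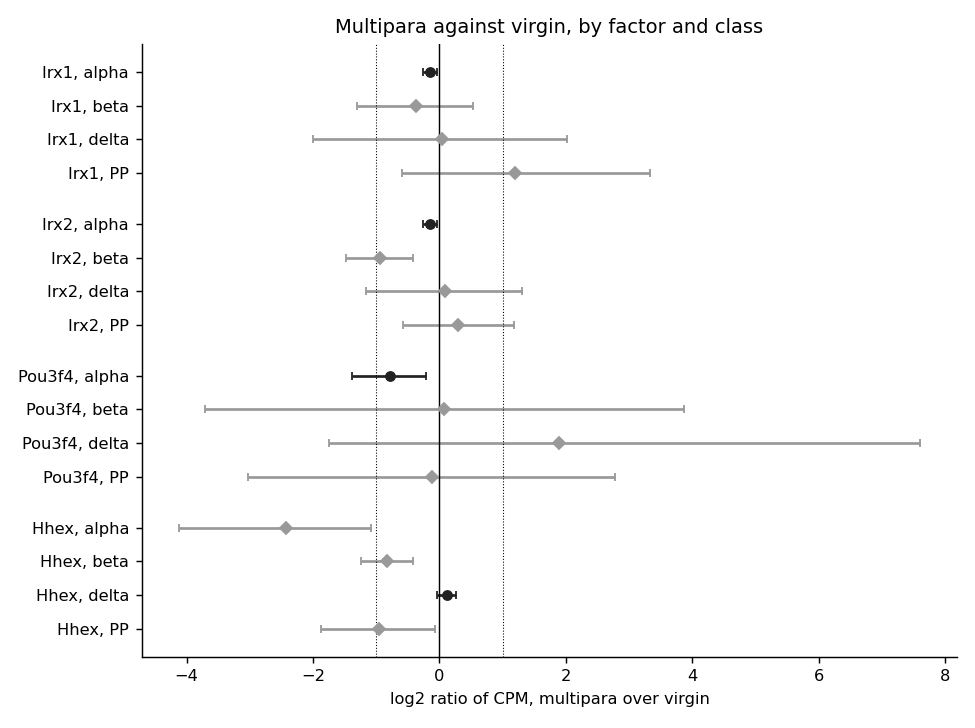
log2 ratio of CPM, multipara over virgin, for each factor in each hormone class, with exact conditional 95% intervals for counting error. Black circles mark the class in which the factor was highest, grey diamonds the others, and dotted lines mark a 2-fold difference. Irx1 and Irx2 in alpha cells sit at -0.15 and Hhex in delta cells at 0.12, with the widest intervals where only 1 to 3 UMIs were counted.

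Other islet transcription factors give the setting of these 4. Of 22 such factors 19 had enough UMIs in alpha and beta cells. While Irx1, Irx2 and Pou3f4 were 2-fold or more higher in alpha than in beta cells of both libraries and Hhex was not, beside 14.9% of all genes, Pdx1, Nkx6-1, Mafa and Mnx1, which are known for their roles in beta cells, were 2-fold or more lower, beside 6.23% of all genes. The median log2 ratio of the 19 was -0.12 in virgin and -0.10 in multipara cells, against 0.42 and 0.40 over all genes. In delta over beta cells Isl1, Rfx3, Hnf4a and Neurog3 were higher, beside 34.4% of all genes, and Nkx6-1, Mafa and Mnx1 were among those lower, beside 3.63%, while Pdx1 was level at 99 and 88.6 CPM in delta and 104 and 90.9 CPM in beta cells. The median of the list was 0.45 and 0.68, against 0.90 and 0.89 over all genes. Neurog3, a factor of endocrine precursors, was at 45.5 and 27.0 CPM in delta cells and at 1.02 and 0.216 CPM in beta cells, where it was the 1 factor of 20 past 2-fold between the libraries, near the 4.38% of all genes. In delta cells 1 factor of 17 was past 2-fold, beside 2.82% of all genes. This was Mafa, with 13 virgin and 21 multipara UMIs (log2 ratio 1.0, -0.06 to 2.12), in cells where Ins2 was at 4911 and 9719 CPM. In alpha cells 0 of 18 and in PP cells 0 of 17 factors were past 2-fold, beside 2.6% and 3.98% of all genes. No other Iroquois or POU class III gene reached the UMI minimum between the hormone classes, and no relatives of Hhex were listed. Irx3 had 0.0204 CPM in virgin beta cells, and Irx4, Irx5 and Irx6 were at 0 in alpha, beta, delta and PP cells. In endothelial cells with little hormone RNA Irx3 stood at 44.9 CPM (virgin) and 33.4 CPM (multipara). Pou3f1 had 16 virgin and 9 multipara UMIs in delta cells (7.58 and 5.28 CPM), against 0.361 and 0.179 CPM in alpha cells, where Pou3f4 was highest. Pou3f3 was at 0 in all 4 classes, and Pou3f2 did not pass 0.474 CPM.

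Genes with the most similar pattern were ranked by the Pearson correlation of log2(CPM + 5) over the 8 sums of 4 classes and 2 libraries, among 11821 genes, as a description only. The sums of a library share its depth and free RNA, and those of a class share its hormone load. Among the genes closest to Irx1 were Mfap2 (0.996), Cldn11 (0.994), Egflam (0.993) and Col26a1 (0.991), and Irx2 stood at 0.978. Irx2 was closest to Rnf130, Tmsb4x, Wnk3, Cit and Nxph1 (0.986 to 0.99), and Pou3f4 to Gm20522, Gm42715, Nxph1, Tex10 and Mat1a (0.948 to 0.973). Hhex was closest to Pkia, Txndc15, Ly6h, Cd24a and Spock3 (0.997 to 0.998), of which Ly6h reached 343 and 404 CPM and Cd24a 475 and 558 CPM in delta cells. Pkia, ranked first, was at 18.95 and 19.4 CPM in delta and 7.64 and 7.31 CPM in beta cells. Rnf130, ranked first for Irx2, was at 286 and 297 CPM in alpha and 101 and 89.2 CPM in beta cells. The correlation does not reflect the size of a difference, so a gene listed here need not be restricted to 1 class.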

How the data were processed

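Raw UMI counts were taken as deposited by the authors. Their processing notes name Cell Ranger 3.1.0, the version also in the file headers. The notes also name Seurat 3.0 and GRCm38 (mm10). Pancreatic islets were measured in 2 libraries, 1 per group. Cells were kept by the study's filter (over 200 and under 6000 genes, under 60000 UMIs, under 10% mitochondrial UMIs), and doublets called per library with Scrublet (scanpy 1.11.5) were removed, 61 virgin and 44 multipara cells. Cells with at least 5 UMIs of an endothelial, immune or mesenchymal marker list went to that class, and the others were gated on Ins1 plus Ins2, Gcg, Sst and Ppy. Of the gated cells 170 virgin and 144 multipara cells had a leading share of 75 to 85%, near the limit.

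UMIs were summed per class and library and divided by the class total (CPM). Sums carry exact Poisson, shares exact Clopper-Pearson and ratios exact conditional binomial 95% intervals, for counting error only. A count of 0 allows 3 counts of the total. Shares at 5000 UMIs are means over all possible draws, except the 1 seeded draw used for joint detection. For fold counts a gene needed 20 UMIs. The code was tested on simulated data. Annotation was GENCODE M21 (GRCm38), and promoters were RefSeq. The named genes were the 4 factors, the islet, Iroquois and POU lists by counts past 2-fold, and the 5 genes most correlated with each factor among those with at least 100 UMIs. Some of these genes are not reported here. Members and lists were chosen with earlier results of these data known. Of 35 planned and 3 later alternatives the effect is given at the end. Python 3.11.15, numpy 2.4.6, pandas 2.3.3, scipy 1.17.1 and matplotlib 3.10.9 were used.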

Additional observations from a re-analysis of the deposited data

Results flagged for a closer look

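Barcodes that the cell filter or the doublet caller left out entered no comparison, and each factor was counted in them above the limit that a count of 0 allows. The 1133 virgin barcodes left out had Irx1 at 7.48 CPM, Irx2 at 8.16 CPM, Pou3f4 at 0.516 CPM and Hhex at 12.2 CPM. The 1745 multipara barcodes left out had Irx1 at 3.73 CPM, Irx2 at 5.51 CPM, Pou3f4 at 0.298 CPM and Hhex at 10.7 CPM. Their cell types were not determined. Hhex was found in 42 virgin and 46 multipara barcodes of this kind, and Irx2 in 61 and 47.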

How the results depend on the processing

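No paired analysis was possible because each group was 1 library. With the leading hormone at 95% of hormone UMIs, the log2 ratio over beta cells was 8.19 and 8.71 for Irx1 (virgin, multipara), 6.09 for Irx2 (virgin) and 10.04 and 9.18 for Hhex. With beta cells at 99%, it was 8.22, 8.62, 6.15, 10.66 and 10.48. At 60% it was 5.39 for Irx2 (virgin) and 7.09 for Hhex (multipara). Without hormone genes in the total it was 6.88 for Irx1 (virgin), 5.10 and 5.91 for Irx2 and 6.04 and 6.98 for Hhex, and with median-of-ratios size factors 5.31 and 6.10 for Irx2 and 5.99 and 6.94 for Hhex. With each cell weighted equally it was 6.96 for Irx1 (multipara) and 6.52 and 7.23 for Hhex. The direction never changed in 96 such values. Hhex in delta cells, multipara over virgin, was -0.078 at the 95% share, against 0.12. The Hhex ratio in alpha cells, -2.43, was -0.29 at the 95% share and -0.84 at 60%. The Hhex ratio in beta cells reversed from -0.82 to 0.78 at the 95% share and 0.30 at 99%, on few UMIs.

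The share of beta cells with a UMI moved with depth. Not thinned, it was 1.28% and 0.939% for Irx1, 4.43% and 2.57% for Irx2 and 2.97% and 2.07% for Hhex. At 10000 UMIs it was 2.08% and 1.14% for Irx2 and 1.71% for Hhex (virgin), and at 2000 UMIs 0.417% for Irx2 (virgin) and 0.475% and 0.281% for Hhex. At a hormone share of 95% Hhex was found in 0.166% and 0.212% of beta cells and at 99% in 0.109% and 0.124%. The background of genes past 2-fold between libraries ran from 0.496% (at least 100 UMIs) to 21.3% (at least 1 UMI) in alpha cells. Added after seeing the data were the 99% gate for ratios and the limit on hormone RNA in reference cells. Depth limits Pou3f4 most, with 2 UMIs per library in beta cells.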
